A study of Mus musculus with 9 samples.

Results

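The genes described here are the enzymes that cut the extracellular matrix and their inhibitors: the matrix metalloproteases (MMPs), the ADAMTS proteases, the ADAMTS-like proteins and the tissue inhibitors of metalloproteases (TIMPs). They were taken by gene symbol, as every symbol that reads Mmp, Adamts or Adamtsl with a number, or Timp1 to Timp4. These families were picked with earlier results of these data known. The symbols gave 51 of the 55416 genes counted, of which 23 were MMPs, 19 ADAMTS, 5 ADAMTS-like and 4 TIMPs. RNA was sequenced from cultured AdvSca1-SM cells, which are progenitors of the arterial adventitia that descend from smooth muscle. They were sorted as YFP+ Sca1+ cells from the aorta and carotid arteries of pooled adult SM22α-Cre YFP reporter mice, so the reporter marks cells with a history of SM22α promoter activity. Each of 3 groups had 3 libraries. Stem cells received the 0.1% DMSO vehicle, TGF-β cells received 5 ng/mL TGF-β1, and Both cells received 5 ng/mL TGF-β1 together with 50 µM PFI-3, a ligand of the bromodomain in the chromatin remodeling ATPase Brg1. Every culture was growth arrested for 24 hours, every group contained 0.1% DMSO, and the treatments lasted 72 hours. Cells of all 3 groups were maintained in stem cell medium with 10% serum, 1 ng/mL bFGF and 5 ng/mL EGF. The labels describe a switch to DMEM with 0.1% serum for the TGF-β and Both cells and give no such switch for Stem. The study grew Stem cells in stem cell medium, and their serum during the treatment is not given. The medium and TGF-β1 therefore cannot be told apart between Stem and the other groups. There was no group with PFI-3 alone, and nothing in the labels says that replicates came from separate isolations, so p-values measure the spread between these cultures.

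MMPs are zinc endopeptidases that are made as inactive proenzymes and between them can cut nearly every protein of the matrix, and TIMPs block them by occupying the active site. ADAMTS enzymes share the zinc-dependent catalytic domain, carry thrombospondin repeats that bring them to the matrix, and cut proteoglycans such as versican and aggrecan or trim procollagens, whereas ADAMTS-like proteins have the repeats without a catalytic domain. In the arterial wall these families are known for their part in matrix turnover during remodeling, and TGF-β is known as a driver of matrix deposition.

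Library totals ran from 35686291 to 47741128 counts, and no library stood apart from its group, with Spearman correlations of at least 0.995 within groups. Of the 55416 genes 14879 passed the filter on low counts and were tested, including 34 of the 51 genes described here. Between Stem and TGF-β, 5 of 6 progenitor markers (Ly6a, Cd34, Pdgfra, Scara5 and Dcn) fell and Pi16 rose, and the summed level of the list went from 65130 to 79483 normalized counts in Stem down to 14600.0 to 15074 in TGF-β and 12072 to 12477 in Both. Smooth muscle markers, of which Acta2 and Tagln rose and Myh11 fell, summed to 10109.7 to 12817, 22399.7 to 24827 and 17141 to 18069 in the same order. Macrophage markers summed to 139.6 to 151.8, 178 to 219 and 290.8 to 307 normalized counts, with Adgre1 at 0 in every library and Ptprc at 0 in every Stem library. Of the other macrophage markers, Csf1r had means of 28.5, 76.1 and 138 and Cd68 of 3.53, 13.2 and 14.3 normalized counts, both higher in TGF-β than in Stem (edgeR adjusted p = 2.07e-04 and 0.00475), and Csf1r was higher again in Both (edgeR adjusted p = 0.0149, under 2-fold). Lyz2, the most abundant of the list in all groups, had means of 114, 109 and 145. It did not pass the test between Stem and TGF-β (edgeR adjusted p = 0.606) and was higher in Both than in TGF-β (edgeR adjusted p = 0.0363, under 2-fold). Neutrophil and hepatocyte markers stayed at or below 3 counts in every library, and of the 4 adipocyte markers only Fabp4 exceeded 4 counts in a library, with means of 198 in Stem, 41.5 with TGF-β1 and 46.3 with PFI-3 added. Endothelial markers summed to between 51.8 and 77.1 in all 9 libraries, although between Stem and TGF-β Kdr rose from a mean of 0.721 to 26.1 (edgeR adjusted p = 8.34e-06) and Tek fell from 45.7 to 18.3 (edgeR adjusted p = 3.39e-04). The part of these lists in the results was not tested, and in bulk RNA fewer cells of a type and less RNA per cell cannot be told apart.

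Addition of TGF-β1 with its medium changed 18 of the 34 tested genes of the 4 families, in both directions. A gene was called where the quasi-likelihood test of edgeR, with p-values adjusted by Benjamini-Hochberg over all tested genes, gave an adjusted p below 0.05 (edgeR adjusted p) and the change was over 2-fold. Of 34 tested genes, 9 rose in TGF-β over Stem and 9 fell, or 26.5% in each direction, where 10.6% of all tested genes rose and 14.5% fell. By adjusted p alone, 11 (32.4%) were higher and 17 (50.0%) lower, where 37.3% and 37.7% of all tested genes were. The 9 that rose were Timp1, Timp3, Mmp13, Mmp16, Adamts6, Adamts8, Adamts10, Adamts12 and Adamtsl2. The 9 that fell were Mmp3, Mmp27, Adamts1, Adamts3, Adamts5, Adamts7, Adamts9, Adamts15 and Adamtsl1. In all 18 the 3 TGF-β libraries lay wholly above or wholly below the 3 Stem libraries, but this was also true of 29 of the 34 and of 76.8% of all tested genes. The median absolute log2 fold change was 1.36 over the 34 genes and 0.49 over all tested genes, while the medians with sign were -0.51 over the 34 genes and close to 0 over all tested genes. These 34 passed the filter on low counts in at least 1 group, so they are not all members of the families.

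**Figure D1:**
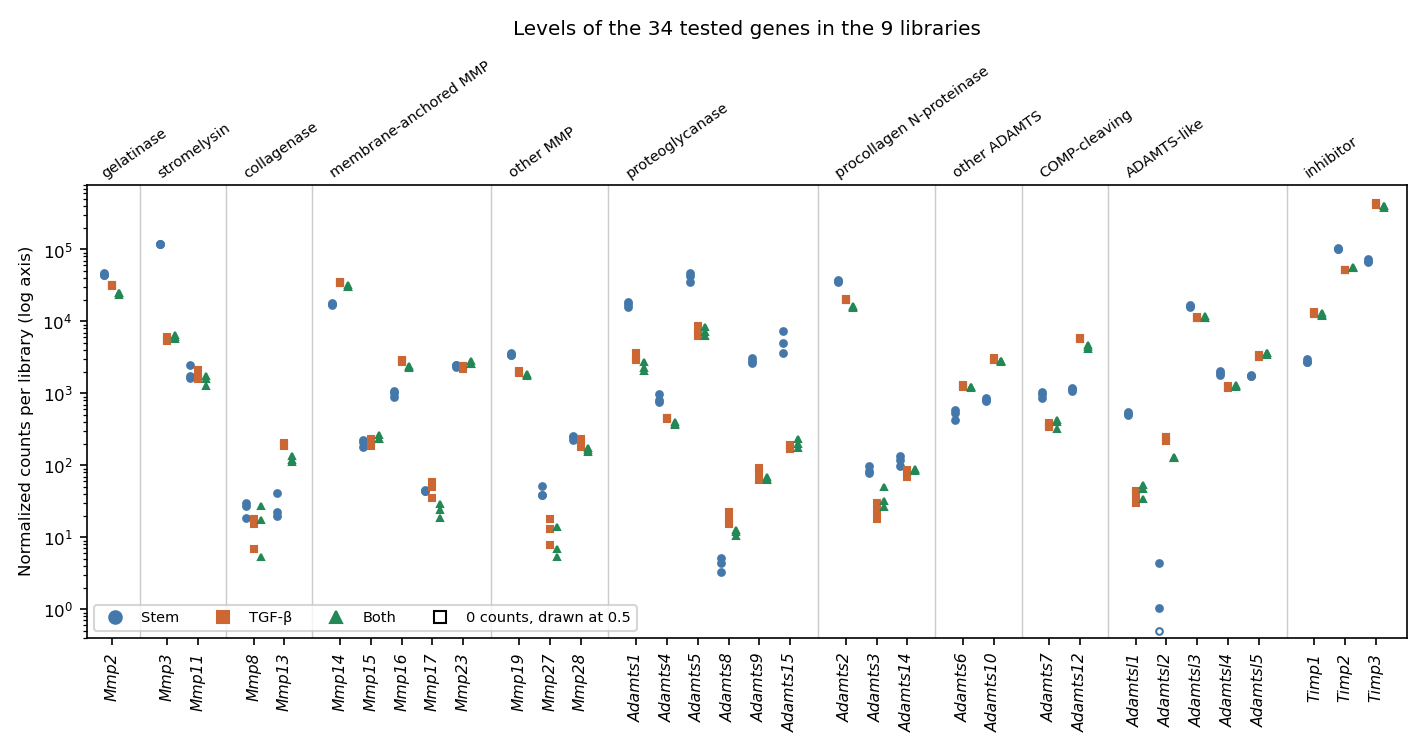
Normalized counts (log axis) of each of the 34 tested genes in each of the 9 libraries, grouped by role, with circles for Stem, squares for TGF-β and triangles for Both and an open symbol for a library with 0 counts. Timp3 lies highest in TGF-β and Both and Mmp3 highest in Stem, and for most genes the TGF-β and Both symbols lie close together.

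**Figure D2:**
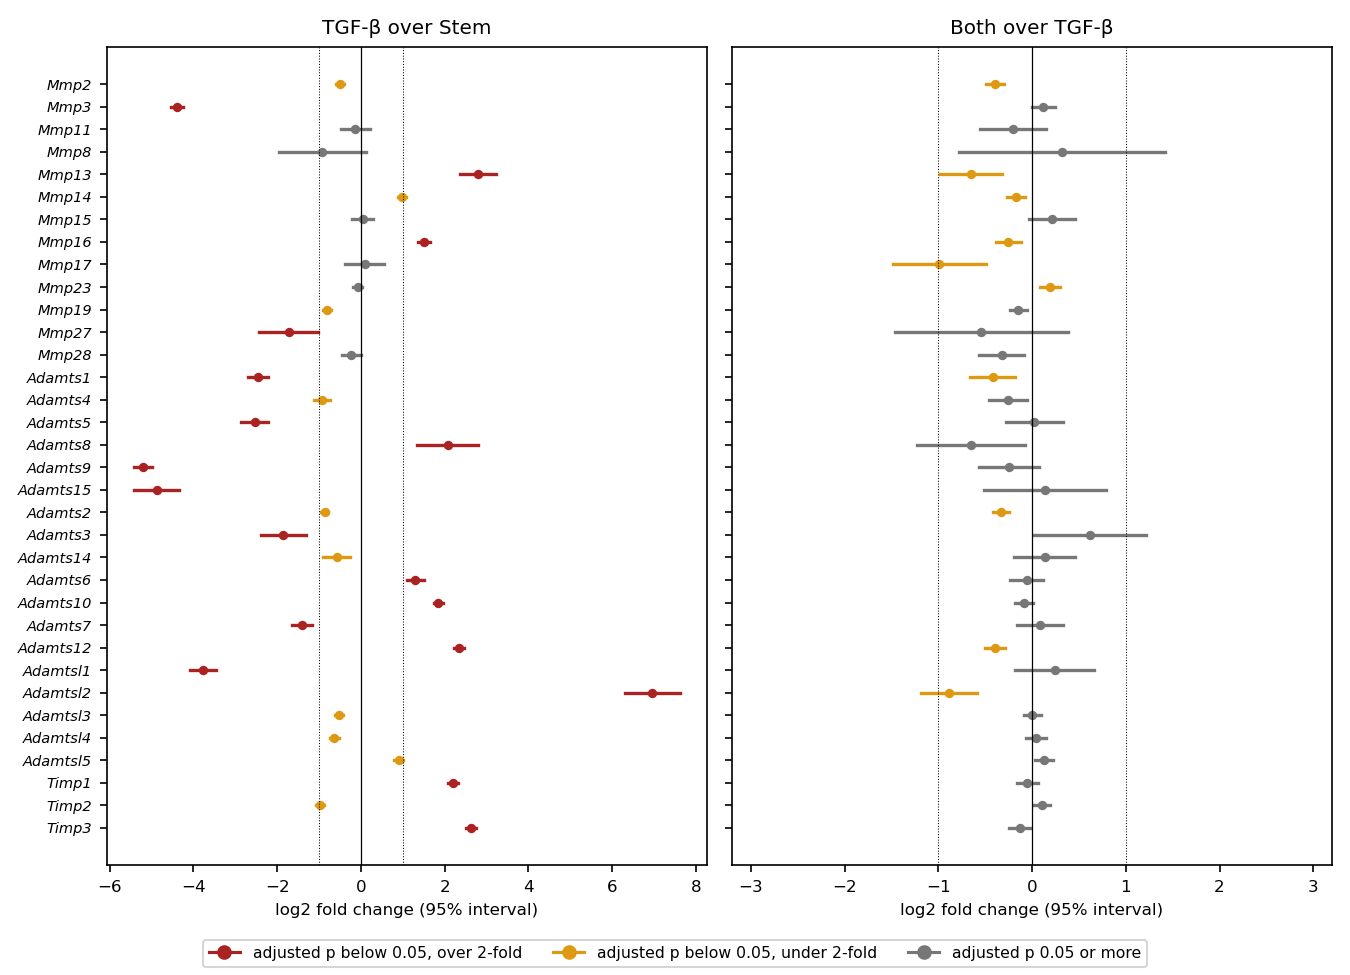
Log2 fold changes with 95% intervals from the edgeR fit, TGF-β over Stem on the left and Both over TGF-β on the right, with dotted lines at 2-fold. Dark red marks the 9 genes that rose and the 9 that fell past 2-fold on the left, no gene does so on the right, and the 2 horizontal scales differ.

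Among the inhibitors, Timp1 and Timp3 rose, Timp2 lay just short of a 2-fold decrease and Timp4 was barely detected. Timp3 (ENSMUSG00000020044), the inhibitor that binds to the matrix and also blocks several ADAMTS enzymes, measured 66185, 74934 and 68678 normalized counts in the 3 Stem libraries. In the TGF-β libraries it reached 420878, 433208 and 440850.0, and in the Both libraries 396698, 405723 and 378593. Every treated library was above every Stem library, and the increase in TGF-β was 6.17-fold (log2 fold change 2.63, SE 0.06, edgeR adjusted p = 1.82e-12). Per length of transcript, in CPM of the scaled library per kb of the longest annotated transcript (CPM per kb), Timp3 stood at 359.6 ± 23.2 (SD, n = 3) in Stem and 2219.6 ± 51.8 in TGF-β. That placed it 7th of 14843 ranked genes in TGF-β, from 70th in Stem, or 10th from 66th with the median annotated length. Timp3 shares 1733 exonic bases with Syn3 on the other strand in the annotation used. Syn3 received 46 counts over all 9 libraries against 2747391 for Timp3. Reads in the shared bases cannot be told apart if the counting ignored strand, so these counts do not settle the overlap.

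Timp1 (ENSMUSG00000001131), a secreted inhibitor that acts only weakly on membrane-anchored MMPs, gave 2703, 2975 and 2721 normalized counts in Stem. Its TGF-β libraries gave 12521, 13346 and 12660.0 and its Both libraries 11742, 13112 and 12357, so Stem was lower throughout and the treated groups overlapped. The increase over Stem in TGF-β was 4.59-fold (log2 fold change 2.20, SE 0.05, edgeR adjusted p = 5.58e-12). Timp2 (ENSMUSG00000017466), which both inhibits MMPs and helps Mmp14 to activate Mmp2, was the leading inhibitor of Stem cells at 100007, 106386 and 101326. It read 52055, 51734 and 52047 in TGF-β and 54498, 57395 and 56104 in Both, again without overlap with Stem. Its level in TGF-β was 1.97-fold lower (log2 fold change -0.98, SE 0.04, edgeR adjusted p = 4.37e-10), within the 2-fold minimum, and with libraries scaled by total counts it passed that minimum. Per length the order of the inhibitors was Timp2, Timp3 and Timp1 in Stem, with 671 ± 22.0, 359.6 ± 23.2 and 77.0 ± 4.18. In TGF-β it was Timp3 far ahead of Timp1 and Timp2, at 353 ± 12.2 and 340.1 ± 1.20 CPM per kb. The order of Timp1 and Timp2 depends on the length used, since with the median annotated length they stood at 363 and 569.8. Timp4 had 15 counts over the 3 Stem libraries, 1 over the 3 TGF-β libraries and 0 over the Both libraries, which allows up to 3 counts.

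The stromelysins split, with Mmp3 falling and Mmp11 not passing the test. Mmp3 (ENSMUSG00000043613), or stromelysin-1, cuts proteoglycans and fibronectin and activates other pro-MMPs. It measured 119150.0, 117707 and 117621 normalized counts in Stem, 5988, 5453 and 5431 with TGF-β1 and 5996, 5778 and 6579 with PFI-3 added. The 3 Stem libraries differed from each other by little and lay far above the rest, and the decrease in TGF-β was 21.0-fold (log2 fold change -4.39, SE 0.06, edgeR adjusted p = 9.75e-14). Per length Mmp3 was 7th of the 14843 ranked genes in Stem at 1593 ± 11.6 CPM per kb, and it stood at 75.8 ± 4.25 in TGF-β. With the median annotated length its rank in Stem was 29th. Mmp11 had group means of 1956 ± 432 normalized counts for Stem, 1778 ± 315 for TGF-β and 1547 ± 255 for Both (SD, n = 3, here and for all later means), and its log2 fold change had an interval of -0.49 to 0.21.

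Of the collagenases, Mmp13, which cuts fibrillar collagen in mice, rose from a low level. Its group means were 28.0 ± 11.6 normalized counts for Stem, 193 ± 10.5 for TGF-β and 123 ± 12.7 for Both, and its increase was 6.90-fold (log2 fold change 2.79, SE 0.20, edgeR adjusted p = 6.89e-08). Mmp8, the collagenase known from neutrophils, had means of only 25.3 ± 6.23 normalized counts for Stem, 13.4 ± 5.90 for TGF-β and 16.9 ± 11.1 for Both and an interval of -1.97 to 0.12 on the log2 scale. Mmp1a and Mmp1b, the mouse relatives of the human interstitial collagenase, never exceeded 4 counts in a library.

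Mmp3 and Mmp13 lie in 1 cluster of MMP genes on chromosome 9, and the promoters of the 4 tested genes of that cluster are shown because Mmp13 rose while Mmp3 and Mmp27 fell. In the RefSeq promoter table for GRCm38.p6, which holds 250 bases before and 50 bases after each annotated start, 36 of the 51 genes had an entry, with 39 promoters. Of these, 10 genes lay within 420 kb of chromosome 9, from base 7272264 to base 7692390. The letters TGANTCA, bound by AP-1 factors and the same when read on the opposite strand, occurred in 8 of those 10 genes, and in 0 of the 27 promoters of the 26 matched genes elsewhere. The share was 7.81% over all 32851 promoters that the table holds, and 8.97% over its genes, counting a gene if any of its promoters matched. In the 8 genes the first letter lay 35 to 95 bases before the start. The 100 bases before each start are given on the plus strand, with the letters in capitals, at chr9:7272414-7272513 for Mmp13, chr9:7445722-7445821 for Mmp3, chr9:7558329-7558428 for Mmp8 and chr9:7571296-7571395 for Mmp27.
Mmp13: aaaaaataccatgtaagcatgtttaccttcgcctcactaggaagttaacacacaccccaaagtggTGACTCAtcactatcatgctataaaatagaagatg
Mmp3: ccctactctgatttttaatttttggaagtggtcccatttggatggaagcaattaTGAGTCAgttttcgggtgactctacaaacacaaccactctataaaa
Mmp8: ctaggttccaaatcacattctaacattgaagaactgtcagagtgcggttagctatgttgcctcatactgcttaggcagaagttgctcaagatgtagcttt
Mmp27: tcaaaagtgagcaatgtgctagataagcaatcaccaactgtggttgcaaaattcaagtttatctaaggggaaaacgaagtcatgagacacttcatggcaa
The letters stand 35 bases before the start in Mmp13, which rose, and 46 bases before it in Mmp3, which fell. Mmp27, which fell, and Mmp8, which did not pass the test, have no match in this window. The other 6 genes of the cluster, Mmp1a, Mmp1b, Mmp7, Mmp10, Mmp12 and Mmp20, all hold the letters in a promoter. Mmp7 and Mmp12 each also have a promoter without them. These 6 genes were not tested, with at most 10 counts in any library. A match of letters is a description of sequence, and binding was not measured here.

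Membrane-anchored MMPs act at the cell surface. Mmp16 (ENSMUSG00000028226), a transmembrane enzyme that can activate Mmp2, rose 2.84-fold (log2 fold change 1.51, SE 0.07, edgeR adjusted p = 7.46e-10). Its libraries read 1074, 879 and 1013 normalized counts in Stem, 2948, 2713 and 2776 with TGF-β1 and 2365, 2432 and 2285 with PFI-3 added, with no overlap between any groups. Mmp14, the main transmembrane collagenase and activator of Mmp2, was far more abundant, with means of 17508 ± 644 normalized counts for Stem, 34460.5 ± 904 for TGF-β and 30645 ± 1420.0 for Both. Its increase of 1.97-fold (log2 fold change 0.98, SE 0.05, edgeR adjusted p = 1.36e-09) stayed short of 2-fold. Per length Mmp14 stood at 258 ± 6.78 CPM per kb in TGF-β and Mmp16 at 13.6 ± 0.590. Mmp15, Mmp17 and Mmp23 had log2 fold changes between -0.08 and 0.09 and did not pass the test, and Mmp24 and Mmp25 were not tested.

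Mmp2, the gelatinase that cuts denatured and basement membrane collagen, was the MMP next after Mmp3 in Stem cells per length at 358 ± 14.4 CPM per kb. Its means were 45329.7 ± 1828 normalized counts for Stem, 31875 ± 882 for TGF-β and 24231 ± 559 for Both, 1.42-fold lower in TGF-β than in Stem (log2 fold change -0.51, SE 0.04, edgeR adjusted p = 2.96e-07) and under the 2-fold minimum. Mmp9, the other gelatinase, had 1 count over the Stem libraries, 17 over TGF-β and 11 over Both. Mmp27 fell 3.31-fold from a low level, with means of 43.1 ± 7.08 normalized counts for Stem, 13.0 ± 5.22 for TGF-β and 8.78 ± 4.62 for Both (log2 fold change -1.73, SE 0.33, edgeR adjusted p = 4.18e-04). Mmp19, which cuts basement membrane proteins, was 1.76-fold lower in TGF-β (edgeR adjusted p = 4.60e-09), and Mmp28 had an interval of -0.46 to 0.01 on the log2 scale.

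Of the 6 tested proteoglycan-cutting ADAMTS enzymes, the role list with the most tested genes, 4 fell, 1 rose and Adamts4 missed the 2-fold minimum. Of all tested genes, 14.5% fell and 10.6% rose past 2-fold. The median log2 fold change of the 6 was -2.50, against close to 0 for all tested genes. Adamts5 (ENSMUSG00000022894), a leading aggrecanase, measured 35121, 47769 and 42447 normalized counts in Stem, against 6208, 8625 and 6739 in TGF-β. Its Both libraries read 6221, 8476 and 7246. Stem lay above all treated libraries and the decrease was 5.81-fold (log2 fold change -2.54, SE 0.15, edgeR adjusted p = 1.06e-08). Adamts1 (ENSMUSG00000022893), which cuts versican and aggrecan, showed 15889, 18736 and 17650.2 in Stem, 2877, 3619 and 2967 with TGF-β1 and 2052, 2744 and 2282 with PFI-3 added. It fell 5.52-fold (log2 fold change -2.47, SE 0.11, edgeR adjusted p = 1.00e-09), and its TGF-β and Both libraries did not overlap. For Adamts1 and Adamts5 replicate 2 was the highest library of each of the 3 groups.

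Adamts9 (ENSMUSG00000030022), a versican-cutting enzyme, had the deepest decrease of the 34 genes. It read 3127, 2674 and 2823 normalized counts in Stem, 90.6, 81.1 and 63.5 with TGF-β1 and 69.3, 63.2 and 64.9 with PFI-3 added, a decrease of 36.8-fold in TGF-β (log2 fold change -5.20, SE 0.10, edgeR adjusted p = 8.11e-13). Adamts15 (ENSMUSG00000033453), which cuts versican and aggrecan, was uneven between the Stem libraries, with 3644, 7471 and 5035 in Stem. The treated libraries were close together at 194, 188 and 168 in TGF-β and 175, 234 and 199 in Both, so the 29.4-fold decrease (log2 fold change -4.88, SE 0.25, edgeR adjusted p = 2.96e-09) was far larger than the spread of Stem. Adamts8, a weaker aggrecanase, rose 4.19-fold but from means of only 4.28 ± 0.996 normalized counts for Stem, 18.3 ± 3.78 for TGF-β and 11.7 ± 1.15 for Both (log2 fold change 2.07, SE 0.34, edgeR adjusted p = 1.36e-04). Adamts4, an aggrecanase, had means of 861 ± 118 normalized counts for Stem, 455 ± 9.60 for TGF-β and 381 ± 18.0 for Both and was 1.89-fold lower (edgeR adjusted p = 1.16e-06), passing the 2-fold minimum with total-count scaling.

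Among the remaining ADAMTS enzymes, 3 rose and 2 fell past 2-fold, where 10.6% of all tested genes rose and 14.5% fell. Adamts12 (ENSMUSG00000047497) and Adamts7 (ENSMUSG00000032363), a pair known to cut cartilage oligomeric matrix protein, moved in opposite directions. Adamts12 read 1152, 1185 and 1084 normalized counts in Stem, against 5722, 5928 and 5683 in TGF-β, an increase of 5.07-fold (log2 fold change 2.34, SE 0.05, edgeR adjusted p = 2.85e-12), with 4381, 4653 and 4107 in Both. Adamts7 read 1062, 859 and 981 in Stem and 391, 337 and 366 in TGF-β, a decrease of 2.66-fold (log2 fold change -1.41, SE 0.11, edgeR adjusted p = 1.56e-07), with 405, 321 and 430.1 in Both. Neither gene had a treated library within the Stem range. Comp itself, which encodes that protein, had means of 925 ± 48.5 normalized counts for Stem, 1069.8 ± 102 for TGF-β and 781 ± 90.9 for Both and a log2 fold change of 0.21. Adamts7 shares 122 exonic bases with Tbc1d2b on the other strand, and Tbc1d2b had 85003 counts over all libraries against 5046 for Adamts7, so reads there cannot be told apart if the counting ignored strand.

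Adamts10 (ENSMUSG00000024299) and Adamts6 (ENSMUSG00000046169) are related enzymes linked to fibrillin microfibrils. Adamts10 had 876, 788 and 810.3 normalized counts in Stem, 3061, 2941 and 2897 with TGF-β1 and 2739, 2846 and 2784 with PFI-3 added. Adamts6 had 533, 586 and 423, 1224, 1291 and 1286 and 1207, 1229 and 1220.0 in the same order. Both genes were higher in every treated library, by 3.59-fold for Adamts10 (log2 fold change 1.85, SE 0.05, edgeR adjusted p = 7.90e-12) and 2.47-fold for Adamts6 (log2 fold change 1.30, SE 0.09, edgeR adjusted p = 4.55e-08) in TGF-β. The procollagen N-proteinases, which remove the amino-terminal propeptide of fibrillar procollagens, were all lower in TGF-β at an adjusted p below 0.05. Only Adamts3 passed 2-fold, with means of 86.3 ± 10.2 normalized counts for Stem, 24.0 ± 6.0 for TGF-β and 36.5 ± 12.4 for Both (log2 fold change -1.85, SE 0.25, edgeR adjusted p = 2.38e-05). Adamts2 carried nearly all of the level, with means of 36461 ± 666 normalized counts for Stem, 19988 ± 314 for TGF-β and 15910.2 ± 538 for Both, and was 1.82-fold lower in TGF-β (log2 fold change -0.87, SE 0.04, edgeR adjusted p = 7.74e-10). Adamts14 was 1.49-fold lower (edgeR adjusted p = 0.00351).

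All 5 ADAMTS-like genes were tested. Adamtsl2, whose protein binds fibrillin and a latent TGF-β binding protein, had the largest increase of the 34 genes. Its counts summed to 5 over the 3 Stem libraries and 697 over the 3 TGF-β libraries. The ratio after scaling was 133, with a 95% counting interval of 56.7 to 411 that covers counting error only (log2 fold change 6.96, SE 0.30, edgeR adjusted p = 6.21e-10). In normalized counts the Stem libraries read 1.05, 0 and 4.33 and the TGF-β libraries 249, 249 and 215. Stem replicate 3 held 4 of the 5 Stem counts, and without it the log2 fold change was 8.50, so the size of the increase is poorly fixed. Adamtsl1 (ENSMUSG00000066113), or punctin, moved the other way, from 497, 516 and 547 in Stem to 30.2, 43.6 and 39.1 in TGF-β and 53.1, 33.6 and 46.5 in Both, a decrease of 13.7-fold (log2 fold change -3.78, SE 0.14, edgeR adjusted p = 2.30e-10). Adamtsl5 was 1.86-fold higher, and Adamtsl3 and Adamtsl4 were 1.44-fold and 1.56-fold lower, in each case short of 2-fold. Per length Adamtsl3 led this group in all 3 conditions, at 54.6 ± 1.44 in Stem, 38.1 ± 0.50 in TGF-β and 38.2 ± 1.68 CPM per kb in Both.

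The other 17 genes were not tested, with at most 10 counts in any library. Mmp7, Mmp20, Mmp21, Adamts13 and Adamts19 had 0 counts in all 9 libraries. Some of the rest were uneven between groups. Adamts18 had 0 counts over the Stem libraries, 15 over TGF-β and 4 over Both, and Adamts16 had 1, 16 and 6. Mmp24 had 3, 5 and 18 counts in that order, while Mmp12, the macrophage elastase, had 19, 22 and 17. With no filter on low counts, the same edgeR test called Mmp9, Adamts16 and Adamts18 higher and Timp4 lower in TGF-β than in Stem. The count for all members was then 12 higher and 10 lower of 46 tested. Of all 26207 genes tested in that setting, 1959 were higher and 2721 lower. Mmp10, Mmp25, Mmp1a, Mmp1b, Adamts17 and Adamts20 made up the remainder, with 1 to 15 counts in the group of 3 libraries where each was highest.

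Summed over each family per length of transcript, the balance between MMP and TIMP transcripts turned over between Stem and TGF-β. The 23 MMPs together gave 2204, 2169.5 and 2160.1 CPM per kb in the Stem libraries, 682, 692 and 655 in TGF-β and 582, 609 and 588 in Both. The 4 TIMPs gave 1069, 1164 and 1091, then 2849, 2933 and 2956, then 2719.5, 2823 and 2654. The ratio of the TIMP to the MMP sum was 0.509 ± 0.0258 (SD, n = 3) in Stem, 4.31 ± 0.177 with TGF-β1 and 4.61 ± 0.0849 with PFI-3 added. A single gene on each side made up much of these sums. Mmp3 made up 73.1 ± 0.263% of the MMP sum in Stem and 11.2 ± 0.606% in TGF-β, and without it the MMP sum was 585 ± 11.8 in Stem and 601 ± 18.1 in TGF-β. Timp3 made up 32.4 ± 0.647% of the TIMP sum in Stem and 76.2 ± 0.430% in TGF-β, and without it the TIMP sum was 749 ± 26.2 and 693 ± 11.0. With the median annotated length Mmp3 made up 46.6% of the MMP sum in Stem and 3.61% in TGF-β, and Timp3 41.1% and 84.7% of the TIMP sum. The ADAMTS sum was 353 ± 29.5 in Stem, 142 ± 5.82 with TGF-β1 and 119.6 ± 6.75 with PFI-3 added, and the ADAMTS-like sum 78.2 ± 2.02, 65.9 ± 1.49 and 67.7 ± 0.909. These sums are descriptions of transcript levels and say nothing of protein or activity, and they depend on the transcript length used, since with the median annotated length the ratio was 0.598, 2.91 and 3.16.

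**Figure D3:**
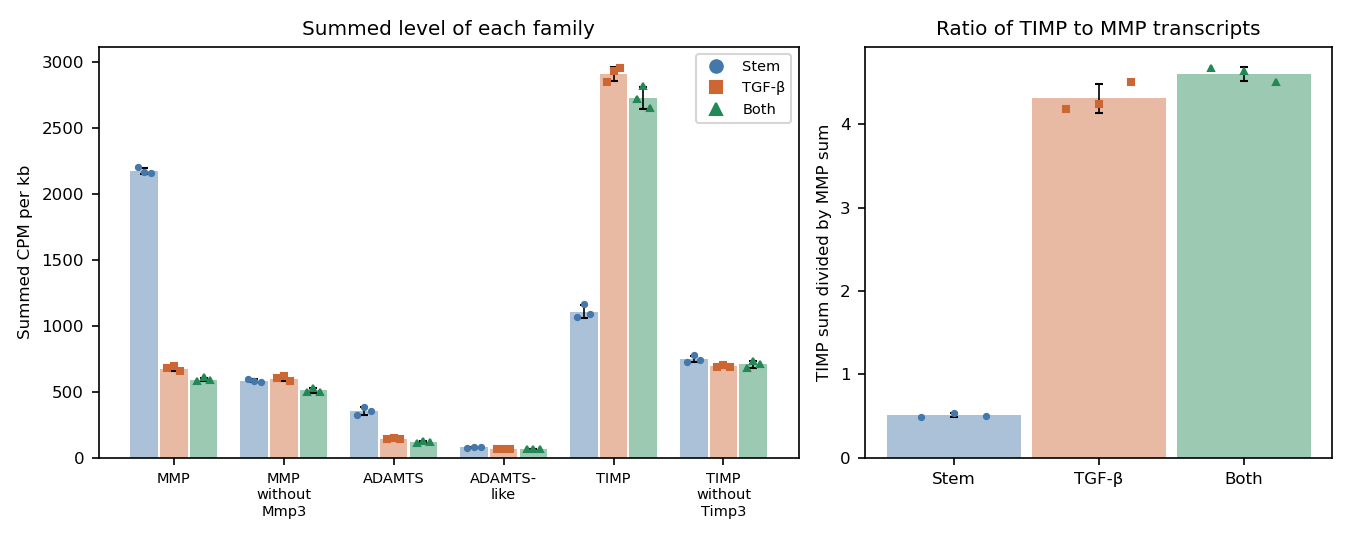
Left, summed CPM per kb of each family in each library (points), with the mean as a bar and the SD as an error bar, n = 3. Right, the TIMP sum divided by the MMP sum, which was near 0.509 in Stem, 4.31 with TGF-β1 and 4.61 with PFI-3 added.

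PFI-3 added to TGF-β1 left every one of the 34 tested genes within 2-fold of TGF-β alone, and where it moved them the change was mostly a small decrease. No gene passed adjusted p and 2-fold together in either direction, where 0.161% of all tested genes rose and 0.470% fell by that rule. DESeq2 also called 0 of the 34 genes past 2-fold. At an edgeR adjusted p below 0.05 without a fold minimum, 9 of the 34 (26.5%) were lower in Both and 1 (2.94%) was higher, where 5.38% of all tested genes were lower and 3.54% higher. These 10 genes were named after their values were seen. The TGF-β and Both libraries did not overlap for 18 of the 34 genes, and for 32.7% of all tested genes.

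The 4 genes with the firmest differences were Mmp2, Adamts2, Adamts12 and Adamtsl2, which stayed below the threshold when any 1 of the 6 libraries was left out, at an edgeR adjusted p of at most 0.0154. Mmp2 read 32232, 32522 and 30870.4 normalized counts with TGF-β and 24569, 24539 and 23586 with PFI-3 added, 1.32-fold lower (log2 fold change -0.40, SE 0.04, edgeR adjusted p = 1.79e-04). Adamts2, the main procollagen N-proteinase here, read 20016, 20287 and 19660.3 normalized counts with TGF-β and 15628, 16530.1 and 15573 with PFI-3 added, 1.26-fold lower (log2 fold change -0.33, SE 0.04, edgeR adjusted p = 2.75e-04). Adamts12 read 5722, 5928 and 5683 normalized counts with TGF-β and 4381, 4653 and 4107 with PFI-3 added, 1.32-fold lower (log2 fold change -0.40, SE 0.05, edgeR adjusted p = 4.43e-04). In none of these did a Both library reach the TGF-β range. Adamtsl2 showed the largest of the 4 differences, with 249, 249 and 215 normalized counts with TGF-β and 128, 132 and 126 with PFI-3 added, 1.85-fold lower (log2 fold change -0.89, SE 0.14, edgeR adjusted p = 0.00213). Set beside Stem, Mmp2 and Adamts2 were lower in TGF-β than in Stem and lower again in Both, while Adamts12 and Adamtsl2 were higher in TGF-β and stood between Stem and TGF-β in Both.

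The other 6 genes were less secure. Mmp17, a membrane-anchored MMP held by a lipid anchor, had 58.3, 49.7 and 35.1 normalized counts with TGF-β and 28.8, 18.8 and 23.7 with PFI-3 added, and its 1.98-fold decrease (log2 fold change -0.99, SE 0.23, edgeR adjusted p = 0.0191) passed 2-fold only without TGF-β replicate 3 or Both replicate 1, at log2 fold changes of -1.17 and -1.15. Mmp13 had 189.9, 205 and 185 normalized counts with TGF-β and 113, 118 and 137 with PFI-3 added (log2 fold change -0.65, SE 0.15, edgeR adjusted p = 0.0202). The remaining decreases were 1.34-fold for Adamts1, 1.19-fold for Mmp16 and 1.12-fold for Mmp14 (edgeR adjusted p = 0.0326, 0.0252 and 0.0363). Mmp23, a transmembrane MMP, was the exception with 2369.7, 2380.2 and 2189 normalized counts with TGF-β and 2582, 2793 and 2568 with PFI-3 added, 1.14-fold higher (log2 fold change 0.20, SE 0.05, edgeR adjusted p = 0.0287). The count of lower genes went from 9 to 5, 4 and 5 when replicate 1, 2 or 3 of TGF-β was left out, and to 5, 8 and 5 when replicate 1, 2 or 3 of Both was left out. Mmp23 lost its adjusted p without any 1 of the 6.

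**Figure D4:**
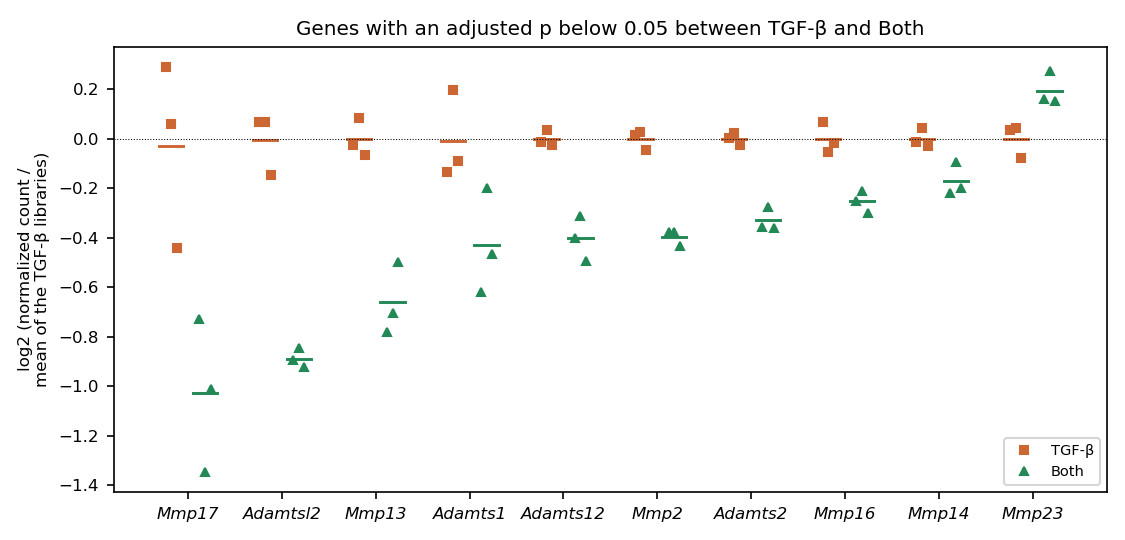
For the 10 genes with an edgeR adjusted p below 0.05 between TGF-β and Both, each library's normalized count relative to the mean of the 3 TGF-β libraries, on a log2 scale, with squares for TGF-β, triangles for Both and a short line at the mean of the log2 values. The 3 Both libraries lie below the 3 TGF-β libraries for 9 genes and above them for Mmp23.

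For most of the other genes that changed between Stem and TGF-β, the values with PFI-3 stayed near those of TGF-β alone. The largest log2 differences of Both from TGF-β among them were in genes with low counts. They were 0.62 for Adamts3 (95% interval 0.02 to 1.22), -0.65 for Adamts8 (-1.23 to -0.07) and -0.54 for Mmp27 (-1.46 to 0.38). These did not pass the test (edgeR adjusted p = 0.192, 0.158 and 0.486). The log2 difference of Both from TGF-β was -0.13 for Timp3 (95% interval -0.25 to -0.02), -0.05 for Timp1 (-0.16 to 0.06) and 0.11 for Timp2 (0.02 to 0.20). The TGF-β and Both libraries did not overlap for Timp3 or Timp2. Without a fold minimum, Timp3 passed the adjusted p threshold in 3 of 14 alternatives and Timp2 in 1. For Mmp3 it was 0.12 (0.00 to 0.24), and its Both libraries overlapped those of TGF-β. Among the proteoglycan-cutting enzymes it was 0.02 for Adamts5 (-0.28 to 0.33), -0.24 for Adamts9 (-0.57 to 0.08) and 0.14 for Adamts15 (-0.51 to 0.79). Adamts6, Adamts7 and Adamts10 had intervals of -0.23 to 0.12, -0.16 to 0.33 and -0.18 to 0.01. An adjusted p that misses the threshold does not show that the groups were alike. For the low genes Adamts3, Adamts8, Mmp8 and Mmp27 the intervals reached beyond or close to 2-fold. The intervals of Mmp17 (-1.49 to -0.49) and Adamtsl2 (-1.19 to -0.58), whose adjusted p passed, also reached beyond 2-fold.

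Stem against Both, which shares libraries with each of the other comparisons, gave 10 higher genes and 11 lower genes of 34, where 9.55% of all tested genes were higher and 13.2% lower. By adjusted p alone, 11 (32.4%) were higher and 19 (55.9%) lower, against 36.6% of all tested genes in each direction. Adamts2 was 2.29-fold lower in Both than in Stem (log2 fold change -1.20, SE 0.04, edgeR adjusted p = 5.30e-11) and Adamts4 2.26-fold lower (log2 fold change -1.18, SE 0.09, edgeR adjusted p = 1.38e-07). Adamtsl5, which binds fibrillin, was 2.04-fold higher (log2 fold change 1.03, SE 0.05, edgeR adjusted p = 1.05e-09), and it fell short of 2-fold when libraries were scaled by total counts. These 3 genes were within 2-fold between Stem and TGF-β, at log2 fold changes of -0.87, -0.92 and 0.90.

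Other genes of the same proteolytic system were read from a list of 33 genes that activate, inhibit or complement these enzymes or are their substrates, and 29 of them were tested. Between Stem and TGF-β 7 (24.1%) rose and 4 (13.8%) fell past 2-fold, where 10.6% of all tested genes rose and 14.5% fell. The plasminogen activators, which generate plasmin and through it can activate pro-MMPs, fell: Plau had means of 2926 ± 1086 normalized counts for Stem, 96.9 ± 13.8 for TGF-β and 79.7 ± 15.3 for Both (log2 fold change -4.91, SE 0.26, edgeR adjusted p = 5.50e-09) and Plat 7039 ± 423 normalized counts for Stem, 1232 ± 83.8 for TGF-β and 1909 ± 255 for Both (log2 fold change -2.52, SE 0.09, edgeR adjusted p = 1.11e-10). Serpine2, an inhibitor of plasminogen activators, was 1.87-fold lower in TGF-β and 3.34-fold lower in Both than in Stem. Pcsk5, a proprotein convertase, rose 2.84-fold and Ctsk, the collagen-cutting cathepsin K, 2.06-fold (edgeR adjusted p = 3.00e-08 and 3.63e-07). Between TGF-β and Both 1 gene of the list rose and 1 fell past 2-fold, or 3.45% each, against 0.161% and 0.470% of all tested genes. These were the brain proteoglycan gene Bcan, with means of 9.52 and 47.9, and the aggrecan gene Acan, with 49.0 and 13.3, both named after their values were seen. The membrane inhibitor Reck, the MMP inducer Bsg and the clearance receptor Lrp1 stayed within 2-fold in all 3 comparisons, as did the convertase Furin and the versican gene Vcan. In TGF-β over Stem, Vcan was 1.89-fold and Bsg 1.35-fold higher (edgeR adjusted p = 4.67e-09 and 6.42e-07). Reck was 1.42-fold and Lrp1 1.21-fold lower (edgeR adjusted p = 4.43e-04 and 0.004), and Furin did not pass the test (edgeR adjusted p = 0.519).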

How the data were processed

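Ribosomal RNA-depleted total RNA of the 9 cultures was sequenced in paired reads, and the authors deposited 1 table of raw read counts per Ensembl gene. The published methods name Flexbar and STAR, while the submitters' processing notes name HISAT2 2.2.1, SAMtools 1.13 and HTSeq 0.11.3, both with GRCm39, so which aligner made the counts is not settled by these sources, and the strand setting of the counting is not given in them. One protocol label names hepatic tissue as the RNA source, whereas the tissue label is aorta and carotid artery.

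From the deposited counts, genes kept by filterByExpr were scaled by TMM (factors 0.967 to 1.08) and fitted over all 9 libraries with edgeR 4.0.16 in R 4.3.3 (quasi-likelihood test, prior count 0.125, group as the only term). P-values were adjusted by Benjamini-Hochberg over all 14879 genes. The call rule was an adjusted p below 0.05 and a change over 2-fold, as in the published methods, which name DESeq2, used here as an alternative (version 1.42.0). The procedure was tested on simulated data. To give normalized counts, each library was brought to 41184338 counts, the average effective library size. A library's floor of 3 counts equals 2.63 to 3.26 normalized counts. Levels per kb use the longest GENCODE vM21 transcript, from another build than the counts, and the promoters and their coordinates are those of RefSeq on GRCm38.p6, not of the build behind the counts. Counting intervals are exact binomial, at 95%.

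Genes past the call rule in any comparison and all TIMPs are named, and those with a mean of at least 500 normalized counts in 1 group, or tested TIMPs, are given in every library. Other genes of the system are named where called with a mean of at least 1000. Some results that these rules or the overlap check would name are not reported here. The members and lists were chosen with earlier results of these data known. Alternatives were DESeq2, its size factors, total-count scaling, other filters, 6-library fits, a replicate block, TREAT, another prior count and leaving out each library. Protein sequences were not analysed here.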

Additional observations from a re-analysis of the deposited data

How the results depend on the processing

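Under the 2-fold rule, single-gene values were followed for the genes called in any comparison and the tested TIMPs. Without a fold minimum, they were followed for all tested genes of the families between TGF-β and Both. Over these 1398 values under the alternatives, 1352 kept their side of the threshold, 31 lost a call, 15 gained one and 0 called values reversed. Calls past 2-fold gained by genes outside that set, such as Mmp17, are not in this tally, nor are values from TREAT. Among those 1352, 12 values between TGF-β and Both changed sign without being called, for Adamts5, Adamts7, Adamtsl3 and Mmp8. Estimates between TGF-β and Both of genes followed under both rules, such as Adamts5 and Adamts7, enter these tallies once per rule. The counts between Stem and TGF-β were 9 and 9. Under the alternatives with a 2-fold minimum other than TREAT they ran from 9 to 12 higher and 9 to 11 lower. With adjusted p alone they were 11 higher and 17 lower. For Stem against Both adjusted p alone gave 11 higher and 19 lower. Between TGF-β and Both the counts past 2-fold were 0 and 0, adjusted p alone gave 1 higher and 9 lower, and leaving out 1 library gave 0 to 1 lower, the 1 being Mmp17. For the rule without a fold minimum, the higher count was 3 with only the 6 libraries compared and 0 to 0 when 1 library was left out, and the lower count was 4 to 8 when 1 was left out. Total-count scaling put the median of all tested genes, on the log2 scale, at -0.12 between Stem and TGF-β and -0.11 between Stem and Both, and gave 9 higher and 11 lower, then 9 higher and 14 lower. With that scaling Timp2 and Adamts4 were called between Stem and TGF-β.

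The deviations of same-numbered libraries correlated at -0.0601 to 0.177. The 3 pairs of replicate 2 were over 0.1 and the other 6 pairs were not, so the numbers were not taken to pair the samples, and in 4 of 9 comparisons, 3 of them of replicate 2, a library correlated best with its own number. With the replicate number as a block the counts were 9 and 9 between Stem and TGF-β, 10 and 11 between Stem and Both, 0 and 0 past 2-fold between TGF-β and Both, and 2 higher and 13 lower there without a fold minimum.

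With the median in place of the longest transcript, the summed levels of Stem, TGF-β and Both in CPM per kb were 3421, 2103 and 1800.2 for MMPs, 1123, 566 and 456 for ADAMTS, 602.6, 439 and 444 for ADAMTS-like genes and 2045, 6119 and 5695 for TIMPs. The TIMP to MMP ratio was then 0.598, 2.91 and 3.16. The log2 fold change of Adamtsl2 between Stem and TGF-β, 6.96, was 5.98 with a prior count of 2. The 17 genes with at most 10 counts in any library were left out by the filter, and without it edgeR, and also DESeq2, called Mmp9, Adamts16, Adamts18 and Timp4 between Stem and TGF-β.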
